A study of Mus musculus with 2 samples.

Results

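Genes of iron storage, uptake and export were examined in astrocytes sorted from the cortex after stroke. The set was taken by name and held 10 of the 19494 genes with a named probe set, namely the ferritin subunits Fth1 and Ftl1, the importers Tfrc and Slc11a2, the exporter Slc40a1 with the ferroxidases Cp and Heph, the heme-degrading enzyme Hmox1, and the regulators Ireb2 and Aco1. Each of the 10 genes had 1 probe set on the array. The samples came from male C.B-17/Icr-+/+Jcl mice aged 7 weeks at occlusion of the middle cerebral artery (MCAO). One pool was labelled MCAO + exercise, from mice given a running wheel until postoperative day (POD) 15, and the other MCAO + non-exercise, from mice kept without a wheel. Mice of both groups had been accustomed to a wheel before surgery. The paper describes BrdU injections for each group in the first days after surgery. It does not say whether the mice whose cells were sorted had received them. On POD15, cells of the ipsilateral cortex were selected with an antibody against ACSA-2, an astrocyte surface antigen, and each pool mixed the RNA of 4 extracts, each of which came from several mice. Each pool was measured on 1 Clariom S array, no sham pool was on the arrays, and so neither the spread between animals nor the effect of ischemia itself could be measured.

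Iron enters brain cells mainly through the transferrin receptor, which takes up transferrin-bound iron into endosomes, where the divalent metal transporter DMT1 moves it to the cytosol. Surplus iron is stored inside ferritin, a shell of heavy and light subunits, and leaves the cell through ferroportin with the help of copper-containing ferroxidases. When cytosolic iron is low, the iron regulatory proteins bind iron responsive elements in messenger RNAs, which blocks the translation of ferritin and ferroportin and stabilizes the transcript of the transferrin receptor. The arrays measured RNA, so control at the level of translation would not be seen in the values given here. After a stroke, iron and heme from blood and dying cells are taken up and processed by microglia, macrophages and astrocytes.

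The intensities were linear, with medians of 106.4 in the MCAO + exercise pool and 112.3 in the MCAO + non-exercise pool, and log2 was taken. As background, the 25th percentile of the named probe sets was used, a log2 value of 4.89 for MCAO + exercise and of 5.08 for MCAO + non-exercise. The 15196 genes that exceeded it for either pool are called kept genes. All 10 astrocyte markers were above background on both arrays, among them Atp1b2, which encodes the ACSA-2 antigen. Markers of microglia, macrophages, oligodendrocytes, neurons, endothelium, neutrophils and choroid plexus were above background as well. As 15196 of the 19494 genes with a named probe set passed this background for either pool, passing it does not show which cells a pool held. With 1 array per group no difference was tested, and no error or p-value is given. A gene was counted as higher or lower if its log2 value in the MCAO + exercise pool minus that in the MCAO + non-exercise pool was above 1 or under -1. By this rule 573 of the 15196 kept genes were higher and 359 were lower, 6.13% together, against 433 and 576 when each array was centred on the median of its kept genes, and 403 and 99 with an offset of 32 before log2. All directions follow the deposited labels. Lcn2, Mobp, Slc1a3 and Ms4a7 are on the lists used here and are listed as changed in the paper. For each of them the direction by these labels is opposite to the one the paper gives. For these named genes the size is the same as in the paper, with only the sign turned. In the paper, Lcn2 was lower with exercise by staining of astrocytes, and by qPCR as a tendency. The files alone do not settle which direction holds. Each sign below, for iron genes and cell type markers alike, is that of the labels and would turn if the labels were exchanged.

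None of the iron genes whose difference could be read passed the threshold. Of the 10, 9 were above background. Among these, 0 were higher by more than 1, where 3.77% of all kept genes were. Likewise 0 were lower by more than 1, where 2.36% were. With shares this low, a count of 0 among 9 genes does not set the iron genes apart. Fth1 is among the 9, but its values were tied near the highest value, so its difference cannot be read. Of the 9, Tfrc, Ireb2 and Aco1 had positive differences, Hmox1, Slc40a1, Slc11a2, Cp and Ftl1 had negative ones, and Fth1 had the same value on both arrays. The sign of Ftl1 turned after quantile normalization, whereas those of the other 7 genes with a difference were kept under all 8 alternatives. The median difference of the 9 was -0.077, against 0.040 over all kept genes. Kept genes were split by mean level into 4 bins of equal size, and all 9 lay in the brighter ones, bins 3 and 4. The medians of these bins were 0.15 and 0.17, and 63.4% and 66.9% of their genes were above 0. Among the 9, the largest difference in size was that of Hmox1, -0.58, and 24.8% of all kept genes had a difference at least as large.

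**Figure D1:**
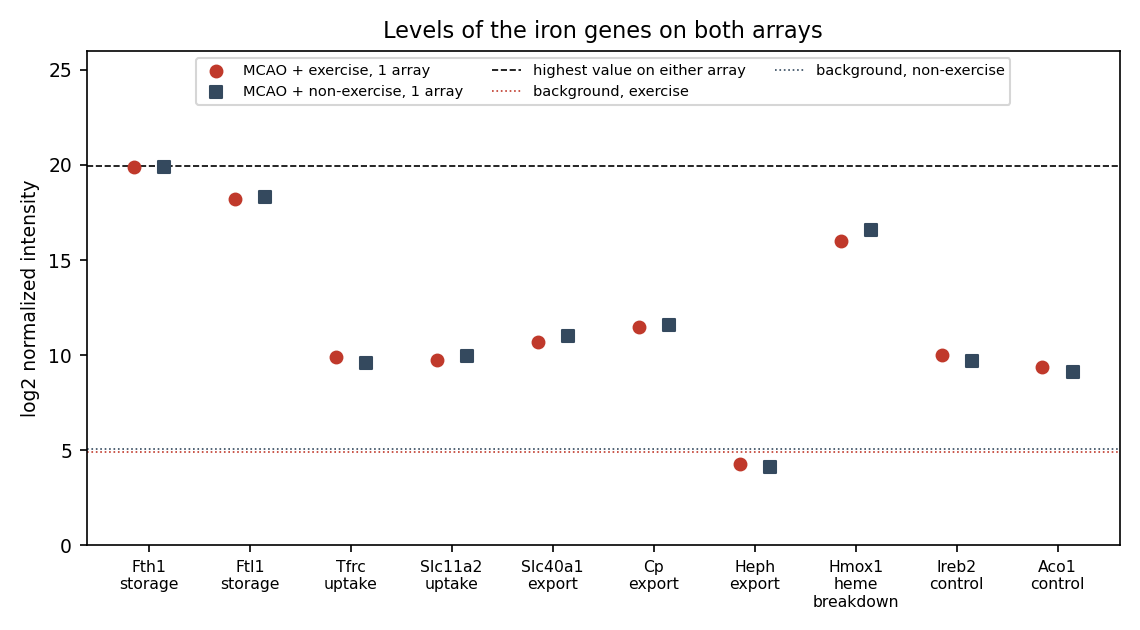
Log2 normalized intensity (y axis) of the 10 iron genes in the MCAO + exercise pool (circles) and the MCAO + non-exercise pool (squares), 1 array per group, with the highest value on either array (dashed) and the background of each array (dotted). Fth1 lay just under the highest value on both arrays, and Heph lay below background on both; levels of different probe sets are not comparable with each other.

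The storage genes Fth1 and Ftl1 were very bright on both arrays, and Fth1 lay at the top of the range. Fth1 encodes the heavy ferritin subunit, which carries the ferroxidase activity that oxidizes iron for storage. Its intensity was 973785 in the MCAO + exercise pool and 973785 in the MCAO + non-exercise pool, which was 97.4% of the highest value, 999964. It ranked 5 from the top among 22142 probe sets on each array. Each of the 5 probe sets at or above this value was tied between the arrays, and 3 of them were at the highest value itself, with 1 named gene among these, Apoe, which was picked out after its values were seen. In all, 52 probe sets were tied. Of these, 12 were at 539728 or above and the other 40 were at 1536 or below, so that ties lay among the brightest probe sets and among far dimmer ones, with none between. Of the 49 probe sets from Ftl1 up to Fth1, 7 were tied. Fth1 thus sat among the tied values at the ceiling of the range, slightly below the highest value, and its difference of 0 does not show that the transcript was equally abundant in both pools. Whether such ties come from the scan or from the normalization was not tested.

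Ftl1 encodes the light ferritin subunit, which favours the formation of the iron core. Its intensity was 304654 in the MCAO + exercise pool and 321440 in the MCAO + non-exercise pool. Both values lay well below the top of the range, at 30.5% and 32.1% of the highest value, and differed between the arrays. On the log2 scale they were 18.22 and 18.29, a difference of -0.077, which 86.8% of all kept genes equalled or exceeded in size. Quantile normalization goes by rank, and as Ftl1 ranked 48 from the top in the MCAO + exercise pool and 57 in the MCAO + non-exercise pool, its difference there was 0.19. RefSeq lists 2 pseudogenes of Fth1 and 3 of Ftl1, of which 0 had a named probe set. How far such copies add to the probe sets of the parent genes is unknown, and the values of Fth1 and Ftl1 are uncertain in this respect.

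Of the other genes of ferritin handling, Ncoa4, the receptor that delivers ferritin to lysosomes for breakdown, had log2 values of 14.02 and 13.90 in the MCAO + exercise and MCAO + non-exercise pools, a difference of 0.12. The iron chaperones of ferritin, Pcbp1 and Pcbp2, had differences of 0.24 and -0.078. The mitochondrial ferritin gene Ftmt was not above background on either array. Over the 5 kept genes of the list on storage and ferritin handling, 0 passed either threshold. The median was the tied value of Fth1, and without Fth1 it was 0.024.

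Uptake genes went in both directions. Tfrc encodes transferrin receptor 1. Its log2 value was 9.93 in the MCAO + exercise pool and 9.56 in the MCAO + non-exercise pool, a difference of 0.36 or a 1.29-fold higher intensity. In the bin of Tfrc, 32.9% of kept genes had a difference as high or higher. Slc11a2 encodes DMT1. Its log2 value was 9.75 in the MCAO + exercise pool and 9.96 in the MCAO + non-exercise pool, a difference of -0.21, and 21.5% of the same bin were as low or lower. Both signs were kept in the alternatives, but the sizes moved: after quantile normalization Tfrc had a difference of 0.15 and Slc11a2 one of -0.41.

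Among 14 kept genes on the list of iron uptake, 7 had positive and 7 negative differences, with a median of -0.0029. Lcn2, a secreted carrier of iron-bound siderophores that inflammation induces, was the only gene of the list higher by more than 1, with log2 values of 13.71 and 11.92 in the MCAO + exercise and MCAO + non-exercise pools. Steap1, of a family of metal reductases, was the only one lower by more than 1, with values of 5.01 and 6.27. The dim value in the MCAO + exercise pool was close to the background of 4.89, and with an offset of 32 the difference of Steap1 was -0.77, against -1.26 without it. Lcn2 is also made by neutrophils, of whose 6 markers 5 were kept, 4 of them with positive differences, led by Ngp with 2.83, and with summed intensities of 3955 in the MCAO + exercise pool and 1585 in the MCAO + non-exercise pool. Their part in the value of Lcn2 was not tested. Slc39a14, which imports iron that is not bound to transferrin, had a difference of -0.66. Trf, which encodes transferrin and is made in the brain mainly by oligodendrocytes and choroid plexus, had intensities of 289865 and 288550 in the MCAO + exercise and MCAO + non-exercise pools, a log2 difference of 0.0066.

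The export genes that could be measured had negative differences. Slc40a1 encodes ferroportin, the only known iron exporter of mammalian cells. Its log2 value was 10.70 in the MCAO + exercise pool and 11.01 in the MCAO + non-exercise pool, a difference of -0.31 or 0.806 times the intensity. In the bin of the brightest kept genes, to which it belonged, differences were more often positive, with 66.9% above 0 and a median of 0.17, and 9.95% were as low as that of Slc40a1 or lower. Cp encodes ceruloplasmin, a ferroxidase that astrocytes carry on their surface through a lipid anchor. It had log2 values of 11.45 and 11.58 in the MCAO + exercise and MCAO + non-exercise pools, a difference of -0.13, and 21.8% of the same bin were as low or lower. Heph encodes hephaestin, a membrane-bound relative of ceruloplasmin. With values of 4.26 and 4.14 in the MCAO + exercise and MCAO + non-exercise pools it was not above background on either array, and no difference is given.

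The other genes of the export list were the ferroxidase Hephl1 and the hepcidin genes Hamp and Hamp2, whose hormone products bind ferroportin; in mice, Hamp is the form that acts on it. Hamp had log2 values of 7.49 and 8.29 in the MCAO + exercise and MCAO + non-exercise pools, a difference of -0.80, and Hamp2 had one of -0.63. This pair is close in sequence, so both values are uncertain as to which of the pair they measure. All 5 kept genes of the list had negative differences, with a median of -0.45, against 46.4% of all kept genes under 0. The list joins an exporter and ferroxidases with hepcidin genes, whose products do not themselves export iron. Its count and median are therefore not a measure of export. The median is the value of Hephl1, which was dim, with intensities of 58.7 and 80.4 in the MCAO + exercise and MCAO + non-exercise pools. In its bin, that of the dimmest kept genes, 63.6% were under 0 and 29.6% were as low or lower. None was lower by more than 1, and the median lay between -0.56 and -0.31 over the alternatives.

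**Figure D2:**
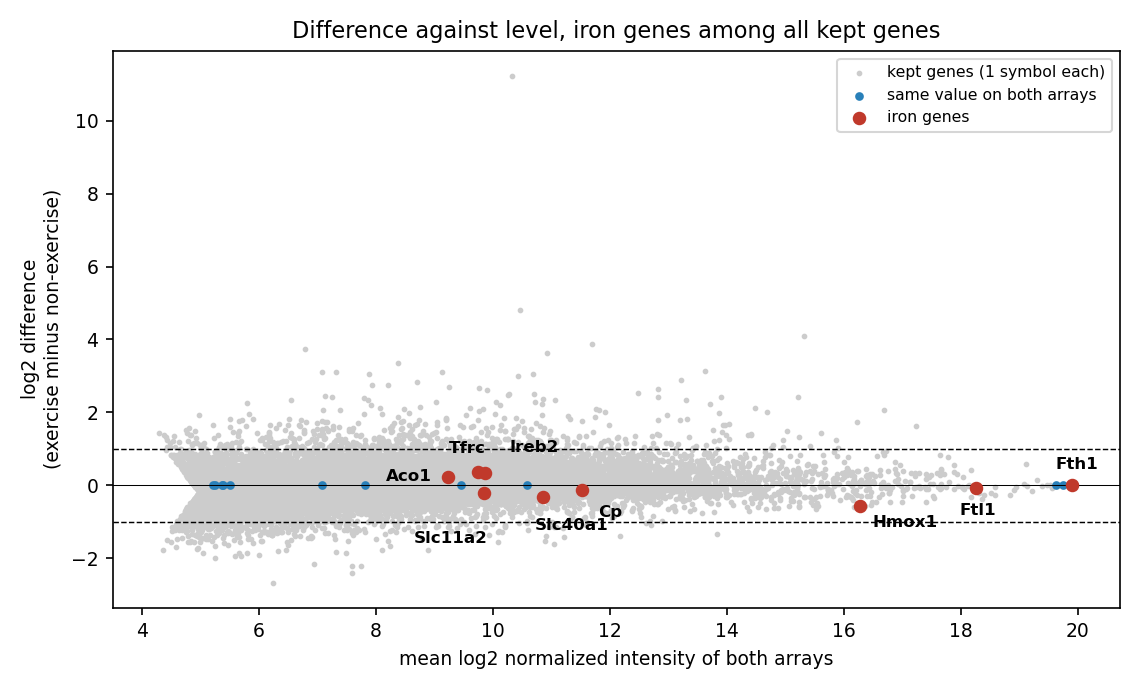
Log2 difference, MCAO + exercise minus MCAO + non-exercise (y axis), against the mean log2 intensity of both arrays (x axis) for 15196 kept genes (grey), the 9 iron genes above background (red) and genes with the same value on both arrays (blue), with the thresholds of 1 and -1 (dashed). The iron genes lie within the thresholds, Fth1 lies among the tied genes at the right end, and Hmox1 lies at the lower edge of the genes at least as bright as itself.

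Hmox1 had the largest difference in size among the iron genes. It encodes heme oxygenase 1, an inducible enzyme that breaks down heme and sets its iron free. Its intensity was 65073 in the MCAO + exercise pool and 97211 in the MCAO + non-exercise pool, or 6.51% and 9.72% of the highest value, so neither was near the top of the range. On the log2 scale the values were 15.99 and 16.57, a difference of -0.58, or 0.669 times the intensity. In the brightest bin, 3.21% had a difference as low or lower. Of the 140 kept genes at least as bright as Hmox1, itself included, 13 had a difference at least as large in size, and 1, Hmox1 itself, had one as low. The median size of the difference among the 140, tied genes such as Fth1 included, was 0.18. The cut was set at the level of Hmox1 itself, and its place as the lowest depends on that cut. Among somewhat dimmer genes, Trem2, Ttr and Tyrobp had differences of -0.57, -0.57 and -0.62. Over the 8 alternatives the difference of Hmox1 lay between -0.70 and -0.58.

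The constitutive enzyme Hmox2 had log2 values of 13.61 and 13.62 in the MCAO + exercise and MCAO + non-exercise pools, a difference of -0.015. Among the other genes of heme breakdown and transport, 9 of 14 had positive differences, or 64.3%. Over all kept genes 53.5% were above 0. The 14 genes lay in all 4 bins of mean level, where 36.2%, 47.3%, 63.4% and 66.9% were above 0, from the dimmest bin to the brightest. The 64.3% lay within this range, and the count does not set the list apart. The biliverdin reductase gene Blvrb had a difference of 0.62, Slc48a1, which moves heme out of lysosomes, one of 0.51, and Slc46a1, a carrier of folate and heme, one of 0.73. Lrp1, a receptor that takes up heme bound to hemopexin, had a difference of -0.40. The list as a whole, 15 kept genes, had a median of 0.12 and 0 genes higher or lower by more than 1. Of 7 kept genes of heme synthesis, 2 had positive and 5 negative differences, with a median of -0.17. Alas1, the rate-limiting enzyme outside red cells, had values of 13.14 and 13.15 in the MCAO + exercise and MCAO + non-exercise pools. Alad had a difference of -0.52 and Cpox one of 0.65.

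The genes of both iron regulatory proteins had small positive differences. Ireb2 encodes iron regulatory protein 2, which is degraded when iron is plentiful. It had log2 values of 10.03 and 9.70 in the MCAO + exercise and MCAO + non-exercise pools, a difference of 0.33, and 35.2% of the genes in its bin had one as high or higher. Aco1 encodes iron regulatory protein 1, which serves as cytosolic aconitase when it holds an iron-sulfur cluster. It had values of 9.35 and 9.13, a difference of 0.22, and 44.5% of the same bin were as high or higher. After quantile normalization the differences were 0.13 for Ireb2 and 0.046 for Aco1. Fbxl5, the iron-sensing ligase subunit that marks Ireb2 for degradation, had a difference of 0.24.

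Over the list on the control of iron balance, 9 of 12 kept genes had positive and 3 negative differences, with a median of 0.16 and 0 past the threshold. Over all kept genes 53.5% were above 0. The 12 genes lay in all 4 bins of mean level, where the share above 0 ran from 36.2% in the dimmest to 66.9% in the brightest. Keap1, the inhibitor of the stress-responsive factor encoded by Nfe2l2, had log2 values of 8.64 and 7.73 in the MCAO + exercise and MCAO + non-exercise pools, a difference of 0.92. Nfe2l2 itself, whose protein activates Hmox1 and ferritin genes, had a difference of 0.28, and Bach1, whose protein represses them, one of 0.096. Bmp6, which induces hepcidin in the liver, had a difference of -0.82. Epas1, which encodes a hypoxia-inducible factor that activates iron transport genes in the intestine, had values of 12.45 and 12.73, a difference of -0.28.

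Genes of mitochondrial iron and iron-sulfur cluster assembly were mostly positive. Of 19 kept genes, 13 were above 0 and 6 under it, with a median of 0.19, against 53.5% above 0 and a median of 0.040 over all kept genes. Most of the 19 were in the bins above the median level. In those bins 63.4% and 66.9% of kept genes were above 0, with medians of 0.15 and 0.17. The positive lean is therefore not particular to this list. Lyrm4, the partner of the cysteine desulfurase, was higher by 1.14, with log2 values of 10.50 and 9.36 in the MCAO + exercise and MCAO + non-exercise pools. Its difference was under the threshold after quantile normalization, with 0.94, and after loess, with 0.95. The desulfurase gene Nfs1 had a difference of 0.96 and the scaffold gene Iscu one of 0.37. Slc25a28, which encodes the mitochondrial iron importer mitoferrin 2, had a difference of -0.90, which was -1.07 after quantile normalization and after loess and -1.01 after centring. After quantile normalization and after loess the median of the list was 0.058.

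In all, the 7 iron lists held 88 genes, of which 84 had a named probe set and 77 were above background. Of the 77, 2 were higher by more than 1 and 1 was lower by more than 1, or 2.60% and 1.30%, where 3.77% and 2.36% of all kept genes were. Their median difference was 0.084.

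**Figure D3:**
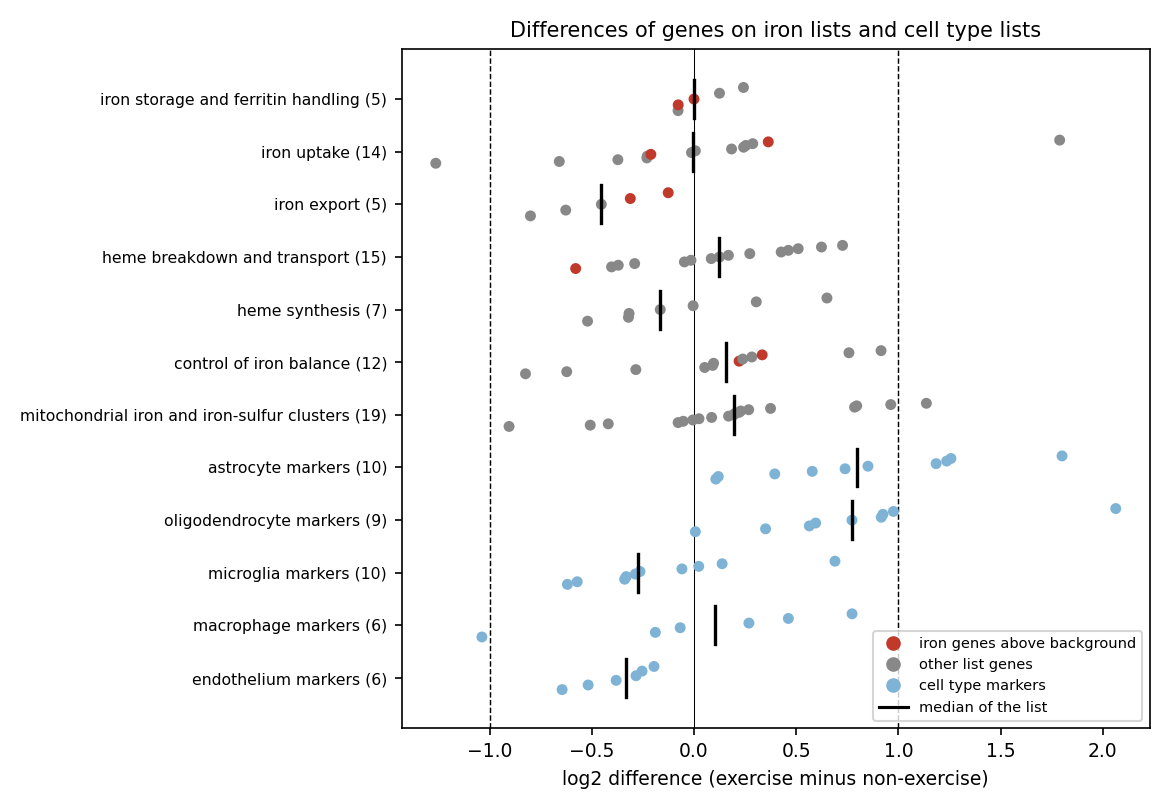
Log2 difference, MCAO + exercise minus MCAO + non-exercise (x axis), of the kept genes on 7 iron lists (grey, with the iron genes in red) and 5 cell type lists (blue), with the number of kept genes after each name, the median of each list (black bar) and the thresholds of 1 and -1 (dashed). All 5 kept genes of the export list, hepcidin genes included, lie below 0, as do all 6 endothelium markers. All 10 astrocyte and 9 oligodendrocyte markers lie above 0.

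Markers of several cell types differed between the pools, and which cells the iron transcripts came from was not tested. Hmox1, Slc40a1 and Ftl1 are known to be expressed in microglia and macrophages. Of 10 microglia markers, all above background on both arrays, 7 had negative differences with a median of -0.28, and their summed intensity was 985470 in the MCAO + exercise pool and 1149358 in the MCAO + non-exercise pool, a ratio of 0.857. The largest negative difference on that list was that of Tyrobp, -0.62, and the largest positive one that of Tmem119, 0.69. Of 6 macrophage markers, 3 had positive and 3 negative differences, with a median of 0.10 and a range of -1.04 for Ms4a7 to 0.77 for Lyve1. Their summed intensity was 17626 in the MCAO + exercise pool and 23050 in the MCAO + non-exercise pool, of which Ms4a7 alone made up 4399 and 9031. Endothelial cells, which also make ferroportin, were represented by 6 markers with negative differences, of which that of Tek, -0.65, was largest in size, and a median of -0.33, and the sums were 30775 and 37404. In the bulk RNA of a pool, fewer cells of a type and less RNA per cell cannot be told apart.

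Astrocyte and oligodendrocyte markers had positive differences, and choroid plexus and erythroid markers mostly negative ones. All 10 astrocyte markers had positive differences, with a median of 0.80 and sums of 125341 in the MCAO + exercise pool and 103646 in the MCAO + non-exercise pool, and single values between 0.11 for Slc1a2 and 1.80 for S100b. Cp, which astrocytes express, had a difference of -0.13 beside them. All 9 kept oligodendrocyte markers had positive differences, with a median of 0.77 and sums of 1691970 and 1122968, and among them Trf, at 0.0066, had the smallest and Mobp, at 2.06, the largest. Ttr, the main transcript of the choroid plexus, an epithelium that also makes ferroportin and ceruloplasmin, had log2 values of 14.77 and 15.34 in the MCAO + exercise and MCAO + non-exercise pools. All 6 choroid plexus markers were kept, 5 of them with negative differences, and their sums were 28351 and 42009, of which Ttr alone made up 27923 and 41516. Of 6 erythroid markers, only Alas2 and Slc4a1 had a named probe set, with differences of -0.32 and -0.78. Of 8 neuron markers, 6 had positive differences, with a range over the list of -1.60 for Syt1 to 1.67 for Slc17a7 and sums of 11344 and 9937. The part that any of these cell types had in the values of the iron genes was not tested.

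**Figure D4:**
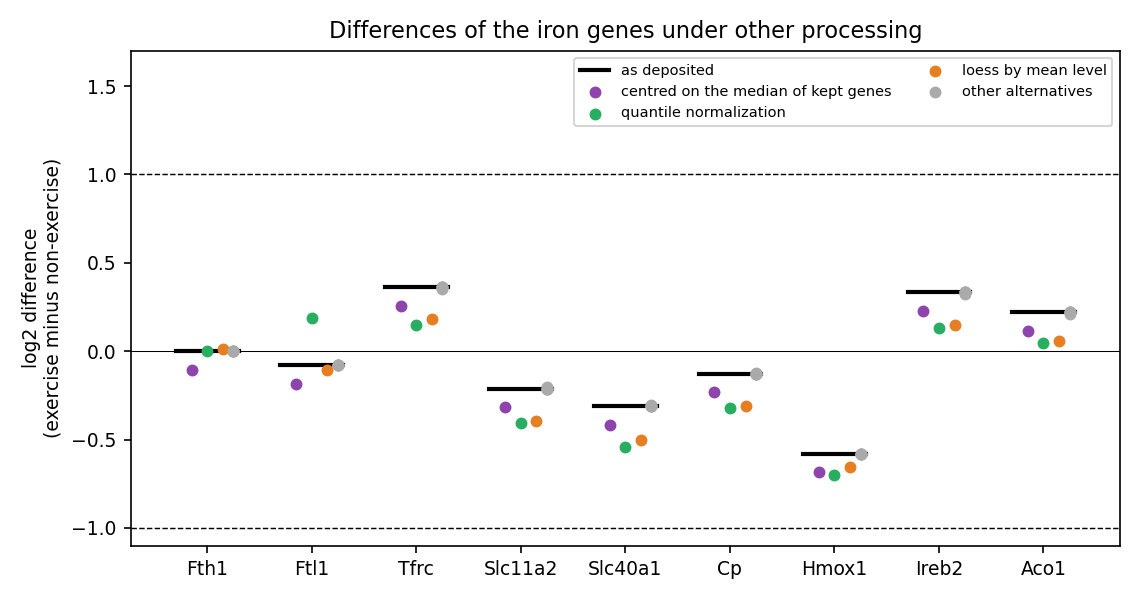
Log2 difference, MCAO + exercise minus MCAO + non-exercise (y axis), of the 9 iron genes above background with the deposited values (black bars), after centring (purple), quantile normalization (green) and loess correction (orange) and in the other alternatives (grey). All values lie between -1 and 1, and Ftl1 is the gene whose non-zero difference turns sign, to 0.19 after quantile normalization.

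Promoter windows, from 250 bases before to 50 after an annotated start, were taken from RefSeq for 6 of the 10 genes, with 9 windows in all. The core of an iron responsive element was searched on the sense strand, and TGACNNNGC, an antioxidant response element, on both. Neither was in any of the 9 windows, where 10.4% and 12.4% of all 32851 windows held a match, which says only that these letters are not in these stretches. Iron responsive elements work in messenger RNA, of which the windows hold at most the first 50 bases, so the search cannot tell whether these genes have one. The hypoxia response core was searched on both strands as ACGTG, found in 2 of the 9 windows, which overlap at Tfrc and share the same site, and in 19.6% of all windows, and as GCGTG, found in 4 of the 9, both of Tfrc included, and in 32.4% of all. The GCGTG matches of Fth1, Ftl1 and the upstream start of Tfrc are shown because these genes of storage and uptake are the ones whose windows held it. The 4 shown read CACGC on the strand of the gene, in capitals, within 29 bases of the GRCm38.p6 assembly.
Fth1, chr19:9982584-9982612, plus strand: gggtttgggcaaCACGCccacaggaagag
Ftl1, chr7:45459917-45459945, minus strand: ccgtctccgcctCACGCcaccgccgattg
Tfrc, chr16:32608767-32608795, plus strand: cgcagccaatcgCACGCgctctcccgaca
Tfrc, chr16:32608820-32608848, plus strand: ggctactccgcgCACGCactggctgcgcg
Counted from the annotated start, the capitals begin at -50 in Fth1, at -47 in Ftl1 and at -117 and -64 in Tfrc. The window of the downstream start of Tfrc held GCGTG on the strand of the gene instead, beginning at -134 and -42, and these matches are not shown. The Fth1 window is that of the downstream one of its annotated starts. A match is a description of letters and not of a bound site, and no binding was measured. The log2 differences of Ftl1 and Tfrc were -0.077 and 0.36, and that of Fth1 cannot be read.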

How the data were processed

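RNA of ACSA-2-sorted cells was measured on 1 Clariom S array per pool. The authors deposited intensities that a service company had normalized by the GCCN-SST-RMA algorithm. Affymetrix Expression Console and RMA appear in the submitters' processing notes. The deposited intensities are linear, run from 6.30 to 999964 for MCAO + exercise and from 5.53 to 999964 for MCAO + non-exercise, and were used without further scaling before log2 was taken. The build behind the probe sets is not given in the sources used here. The number of arrays limits the precision.

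GEO's platform annotation paired 19527 of 22142 probe sets with 1 symbol, 0 with several and left 2615 unnamed. For genes with several probe sets, the brightest was used. Symbols absent from the annotation were looked up by gene ID in RefSeq. In place of the negative control used as a floor in the study, the 25th percentile of each array was taken.

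The members and lists were chosen with earlier results of these data known. The genes named are the members and, for each list, those with the largest positive and negative difference and the highest level. Other genes named were chosen after their values were seen. On the iron lists, 4 genes had no named probe set. Differences were set against all kept genes and against those of like mean level. The alternatives were a background at the 10th percentile, on both arrays or absent, centring, quantile normalization, loess with a span of 0.3, an offset of 32, the mean of probe sets and, for counts and medians, leaving out tied or highest values. Protein sequences were not used here. Scripts ran in Python 3.11.15 with pandas 2.3.3 and NumPy 2.4.6, loess came from statsmodels 0.14.6, and plots were drawn with matplotlib 3.10.9.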

Additional observations from a re-analysis of the deposited data

How the results depend on the processing

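With 1 array per group, no replicate could be left out, and no paired analysis was possible because each group had 1 array. In none of the alternatives was an iron gene higher or lower by more than 1. A background passed on both arrays gave 230 genes that were lower, against 359, an offset of 32 gave 99 and centring 576. Centring on the median of the kept genes lowered every difference by 0.11 and moved the median of all kept genes to -0.067. The median of the iron genes was then -0.18. Those of the lists were -0.11 for storage and ferritin handling, -0.11 for uptake, -0.56 for export, 0.018 for heme breakdown and transport, -0.27 for heme synthesis, 0.051 for control and 0.087 for mitochondrial iron and iron-sulfur clusters. Heme synthesis had a median of -0.35 after quantile normalization and of -0.35 after loess, and mitochondrial iron and iron-sulfur clusters one of 0.058 after each. With an offset of 32 the export median was -0.31. The medians of storage and uptake, 0.00 and -0.0029, had the other sign or 0 in several alternatives, and after quantile normalization the median of the iron genes was 0.00. The other 90 values of counts and medians stayed within 1.5 times the main count or within 0.1 of the main median. For single named genes, 65 values moved by over 0.1 and 135 by less. The causes were not tested. Fth1 lies among tied values at the top of the range, so its difference cannot be read, and Heph lies under the background.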
